A study of Mus musculus with 16 samples.

Results

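The 42 genes described here form the core machinery of mitosis, from the kinases that open it to the proteins that divide the cell. They were listed by name, from Mki67 to Tacc3, and read on the mouse array through the probe table. All 42 were measured, by 51 of the 26423 probes, among 17710 named genes. The 8 genes with several probes are given by the probe with the highest mean. The list was not chosen from measured values by its rule, although it was proposed with earlier results of these data in view.

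The series compared progenitor cells of the mouse bone marrow and heart with each other and with cardiomyocytes, the contracting muscle cells of the heart. All 16 arrays came from C57BL/6 mice of genotype "Normal", of unstated age. Marrow gave c-kit+ cells sorted by flow cytometry (3 arrays) and mesenchymal stem cells, called MSC below, collected after 5 passages (3 arrays). The heart gave sorted c-kit+ cells (3 arrays), sorted Sca1+CD45-CD31- cells (3 arrays) and side population cells, called SP cells below, taken by their export of the dye Hoechst 33342 (2 arrays). Cardiomyocytes separated by slow centrifugation were the control (2 arrays). The labels give 1 text on Matrigel and mTeSR culture for every sample, so whether the sorted cells were cultured is not given in the sources used here. Passages are named for MSC alone, so in each comparison with MSC the cell source and the passages cannot be told apart. The labels do not say that replicates came from separate animals, and p-values below measure only the spread between these arrays.

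Mitosis starts when cyclin-dependent kinase with its A and B cyclins, released by the phosphatase Cdc25c and helped by Plk1 and the Aurora kinases, drives chromosome condensation and spindle growth. Kinetochores, built on the centromere histone Cenpa, then catch microtubules, and the checkpoint kinases Bub1, Bub1b and Ttk hold anaphase back until all are attached. Separase (Espl1) then cuts cohesin, and Ect2, Racgap1 and Anln direct the furrow that divides the cell. Most of these transcripts rise in the second part of the cell cycle in dividing cells and are kept low in resting ones through the repressive DREAM complex. Adult marrow holds many dividing blood progenitors, while adult heart cells divide rarely.

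Promoters of such genes are known for 2 sequence words, CCAAT, which the factor NF-Y binds, and the cell cycle homology region, written TTTGAA or TTTAAA, which the MuvB core of DREAM binds close to the start. RefSeq windows of build GRCm38.p6, from 250 bases before to 50 after the start, matched 35 of the 42 genes, in 37 windows. The words were searched on both strands, TTTAAA being its own reverse complement, and matches that overlap were all counted. TTTGAA was in 75.7% of the 37 windows and in 17.9% of all 32851 windows. Within 100 bases before to 50 after the start, either word was in 75.7% of the windows of these genes and in 12.8% of all windows. CCAAT was in 70.3% against 37.4%, at least 2 copies in 45.9% against 11.7%, and CCAAT together with either of the other words in 64.9% against 10.7%. The median GC content of the windows was 59.0% against 52.7%. The wider list of mitosis genes described below had 86 windows. TTTGAA was in 46.5% of them, CCAAT in 67.4% and at least 2 copies of CCAAT in 38.4%. Within 100 bases before to 50 after the start, either TTTGAA or TTTAAA was in 40.7% of them. CCAAT was thus not particular to the 42 genes. A match is a description of letters and no evidence of binding in these cells.

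The 120 bases before the start are shown, 5′ to 3′ on the strand of the gene, for 7 genes described below and for Pttg1, whose difference had the opposite sign. The 7 genes are examples and not those with the largest differences. Capitals mark these words on either strand, so that ATTGG is CCAAT read from the other strand and TTCAAA likewise stands for TTTGAA.
Top2a (chr11:99024190-99024309, minus strand): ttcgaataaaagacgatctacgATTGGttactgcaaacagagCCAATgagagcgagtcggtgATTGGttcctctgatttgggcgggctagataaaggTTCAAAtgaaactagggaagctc
Kif11 (chr19:37376262-37376381, plus strand): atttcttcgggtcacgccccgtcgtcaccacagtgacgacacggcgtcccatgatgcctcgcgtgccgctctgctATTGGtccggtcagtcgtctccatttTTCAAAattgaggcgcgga
Kif22 (chr7:127042421-127042540, minus strand): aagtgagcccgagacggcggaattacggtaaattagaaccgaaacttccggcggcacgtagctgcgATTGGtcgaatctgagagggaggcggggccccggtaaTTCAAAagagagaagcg
Espl1 (chr15:102296173-102296292, plus strand): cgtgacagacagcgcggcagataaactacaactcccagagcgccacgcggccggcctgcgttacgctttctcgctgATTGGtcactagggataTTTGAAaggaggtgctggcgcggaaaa
Cenpa (chr5:30666766-30666885, plus strand): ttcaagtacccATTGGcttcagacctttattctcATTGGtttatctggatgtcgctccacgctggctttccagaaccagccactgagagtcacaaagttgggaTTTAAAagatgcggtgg
Plk1 (chr7:122159315-122159434, plus strand): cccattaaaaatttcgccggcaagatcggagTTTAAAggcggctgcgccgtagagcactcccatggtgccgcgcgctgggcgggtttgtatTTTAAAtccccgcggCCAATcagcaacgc
Bub1 (chr2:127831860-127831979, minus strand): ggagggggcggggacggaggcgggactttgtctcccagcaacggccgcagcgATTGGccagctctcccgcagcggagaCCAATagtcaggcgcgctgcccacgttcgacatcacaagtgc
Pttg1 (chr11:43425982-43426101, minus strand): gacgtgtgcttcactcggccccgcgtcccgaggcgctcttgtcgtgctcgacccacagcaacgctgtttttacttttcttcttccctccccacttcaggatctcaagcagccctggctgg
In Top2a, Kif11, Kif22 and Espl1 the word TTTGAA began 17 to 27 bases before the start, at -23, -19, -17 and -27. The Cenpa window held TTTAAA at -17, and that of Plk1 held it at -89 and at -29. The Bub1 window held CCAAT at -68 and -42 and neither of the other words, and the Pttg1 window held none of the 3. Windows not shown, of other genes with large differences, were laid out differently. Nek2 held only CCAAT, at -26 and 8, and Ndc80 held its words only after the start, at 23 and 30. Mki67 held TTTGAA at -116 and -98, with CCAAT further out. The windows shown thus do not stand for all genes with large differences. No word was found for 5 of the 35 genes, Nuf2, Nusap1, Melk, Tacc3 and Pttg1. Their log2 differences between marrow and cardiac progenitors, described below, ran from -0.68 to 3.37 (median 2.99), and those of the other 30 genes from -0.02 to 8.55 (median 4.82).

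Values below are log2 Cy5 intensities that were quantile normalised over all probes, so that 1 unit is a doubling and the median gene of an array lies between 0.58 and 0.83. A level compares cell groups for 1 gene and does not rank genes against each other, since probes differ. A difference is given with the standard error of limma's fit, and a gene was called when its p-value, adjusted by Benjamini-Hochberg over 17710 genes, was under 0.05. Each array also carries 1 repeated fill value, which replaced 36 of the 672 values of these genes, 14 of them in heart c-kit cells, 12 in heart SP cells, 8 in heart Sca1 cells and 2 in MSC. On most arrays some probes also lay below the fill value, up to 814 of them (heart SP replicate 1). Such values are not among the 36. A difference that rests on fill values, or on values below them, is a fitted value and no measured fold. For those with the highest differences it is given also with all values under the 30th percentile raised to it. No value of the 42 genes lay within 5% of the brightest spot of its array. In such bulk samples fewer dividing cells and less RNA per cell cannot be told apart.

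Marker genes were read beside the results, as means over the measured markers of each list. The 5 of 8 measured cardiomyocyte markers averaged 6.76 and 6.91 on the cardiomyocyte arrays and 3.82 or less on all others, but those arrays also read 6.15 and 6.68 for the 6 endothelial markers and 2.66 and 3.57 for 6 of 8 macrophage and leukocyte markers. Kit, the sort marker of both c-kit populations, was 5.50 ± 0.32 (SD, n = 3) in marrow c-kit cells and 3.67 ± 1.46 (SD, n = 3) in heart c-kit cells, against -1.61 ± 0.19 in MSC. The 5 measured blood progenitor markers, Kit among them, averaged at most 5.13 in marrow c-kit cells and 3.11 to 5.12 in heart c-kit cells. MSC read 3.38 to 3.64 for them, cardiomyocytes 3.93 and 4.46, heart Sca1 cells 1.26 to 3.55 and heart SP cells 3.04 and 0.32. Unlike Kit alone, the blood progenitor list did not set heart c-kit cells apart from MSC. The macrophage and leukocyte markers were highest in MSC, at 5.97 to 6.27, against 3.80 to 4.22 in marrow c-kit cells. Heart Sca1 replicate 3 stood apart from its group with endothelial markers at 5.04, against 0.81 and 1.70 on the other 2 arrays. The dye exporter Abcg2 was 0.59 and 4.41 on the 2 heart SP arrays. The 3 dye export markers, Abcg2 among them, averaged 1.47 and 2.28 on those arrays. Cardiomyocytes read 2.88 and 3.69 for them, and heart c-kit cells 2.29 to 4.15. Heart Sca1 cells read 1.43 to 2.47, MSC 2.00 to 2.22 and marrow c-kit cells 0.84 to 1.55. This list thus did not mark out the SP arrays. The part of the cell types read by these markers in the differences below was not tested.

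**Figure D1:**
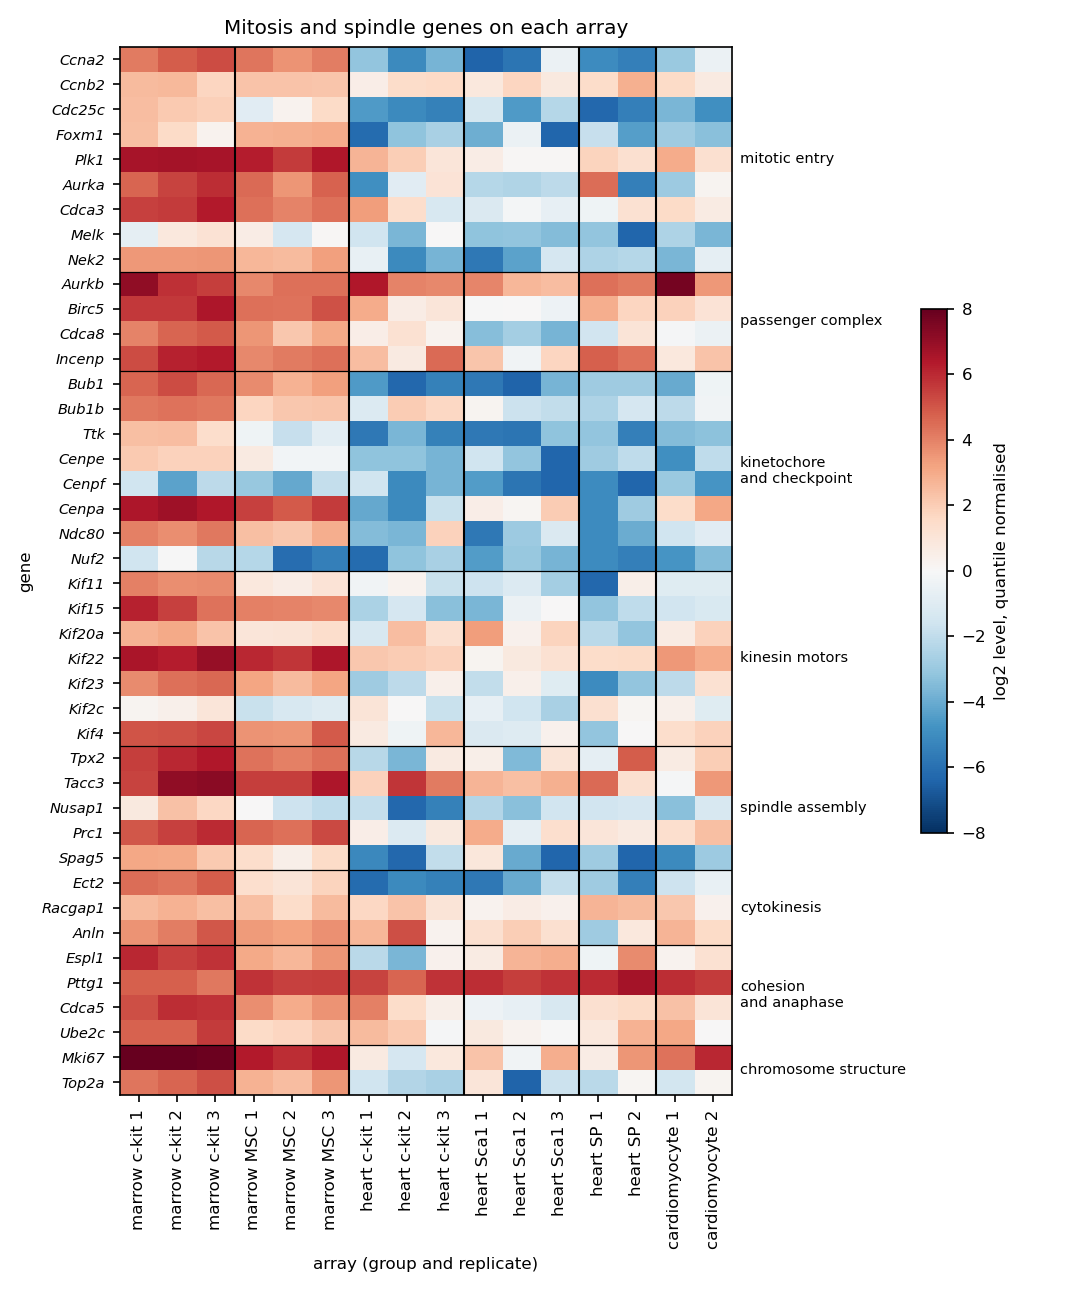
Log2 level of each of the 42 genes (rows, grouped by role) on each of the 16 arrays (columns, grouped by cell population), with red above and blue below 0. The 6 marrow arrays are red for most genes, while Pttg1 is at 4.24 or above on every array.

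Most of the 42 genes were highest in the marrow populations. Their mean level was 4.06 in the c-kit cells of marrow and 2.60 for MSC. In the heart it was -0.85 (c-kit cells), -1.11 (Sca1 cells) and -0.95 (SP cells), and cardiomyocytes had -0.05. For 34 genes both marrow group means exceeded all 4 others, and for 21 genes each of the 6 marrow arrays exceeded each of the 10 other arrays, which held for 2.41% of all 17710 genes. Marrow c-kit cells had the highest mean for 38 genes, MSC for Foxm1, and heart SP cells for Pttg1, Racgap1 and Kif2c. The moderated F test over the 6 groups called 35 of 42 genes, against 31.9% of all genes.

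**Figure D2:**
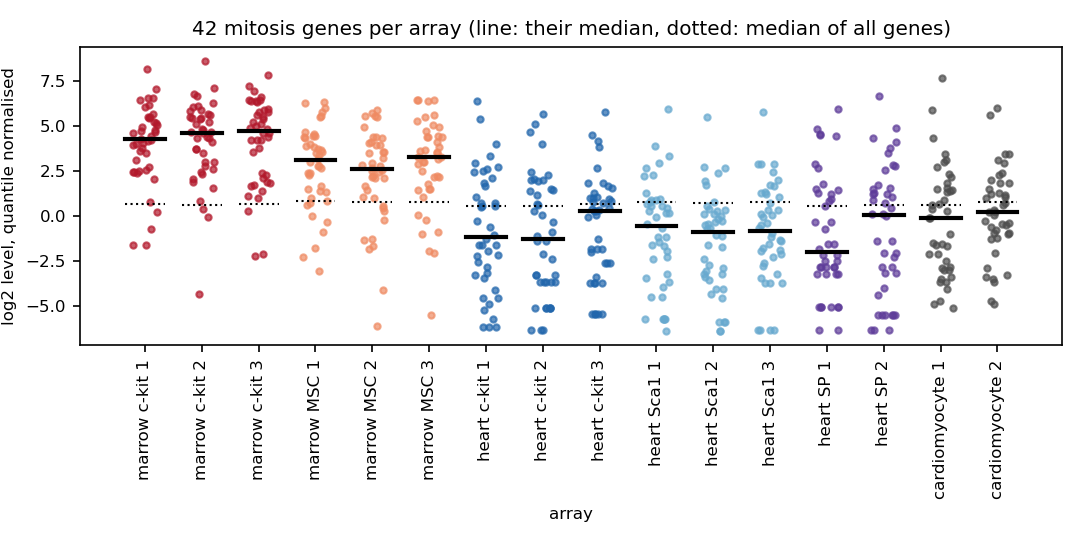
Log2 levels of the 42 genes on each array (points), with their median (solid line) and the median of all 17710 genes (dotted line). The medians of the 42 genes run from 2.60 to 4.71 on the marrow arrays and from -1.98 to 0.29 on the others, while the dotted lines stay between 0.58 and 0.83.

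The comparison of the series title sets the mean of the 2 marrow populations against the mean of the 3 cardiac progenitor populations. Of the 42 genes 36 were called higher in marrow and none lower, where 11.4% of all genes were called higher and 9.12% lower. The median difference was 4.53, with a range of -0.68 to 8.87, against -0.05 over all genes. The arrays did not overlap between the sides for 22 genes, against 2.62% of all genes. Leaving out 1 array at a time gave 34 to 36 called genes. With array medians aligned in place of quantile normalisation, which moved the median of all genes to -0.62, 30 genes were higher and 1, Pttg1, lower.

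Genes of mitotic entry were called higher in marrow in 8 of 9 cases (median difference 5.70). Ccna2, the cyclin of S phase and early mitosis, read 4.18, 4.82 and 5.24 in marrow c-kit cells, with 4.31, 3.58 and 4.10 for MSC. In the cardiac progenitors it read -3.13, -5.10 and -3.71 (c-kit), -6.38, -5.85 and -0.47 (Sca1) and -5.06 and -5.50 (SP), 4 of these 8 values being the fill value. No marrow array overlapped a cardiac one (fitted difference 8.87 ± 0.82, limma adjusted p = 4.67e-06). With low values raised the difference was 6.48 (limma adjusted p = 4.87e-07).

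Plk1, the polo kinase that drives entry and spindle maturation, was measured with less spread. It read 6.57, 6.67 and 6.61 in marrow c-kit cells, 6.28, 5.58 and 6.42 for MSC, 2.71, 1.94 and 0.96 in heart c-kit cells, 0.58, 0.10 and 0.10 in heart Sca1 cells, 1.79 and 1.25 in heart SP cells and 2.99 and 1.31 in cardiomyocytes. Every marrow array lay above every other array, with no fill value. The difference from cardiac progenitors was 5.14 ± 0.39, or 35.3-fold (limma adjusted p = 1.11e-06).

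Nek2, a kinase that splits the centrosomes, was 3.50 ± 0.03 (SD, n = 3) in marrow c-kit cells, with 2.83 ± 0.38 for MSC, and between -5.69 and -0.61 on the 8 arrays of cardiac progenitors (difference 6.26 ± 0.78, limma adjusted p = 6.05e-05). Of those 8 values 2 were fill values, and with low values raised the difference was 5.18. Foxm1, the transcription factor of many of these genes, was the one gene with its highest level in MSC, at 2.76, 2.86 and 2.98 against 2.43, 1.54 and 0.28 in marrow c-kit cells. These 2 groups did not overlap, but their difference of -1.45 ± 1.28 did not pass the test (limma adjusted p = 0.561). Ccnb2, a B cyclin, was the member of the group that was not called: its group means lay between 1.11 and 2.27 everywhere (difference 0.77 ± 0.37, limma adjusted p = 0.168).

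The kinetochore and checkpoint genes were called higher in 7 of 8 cases (median 4.73). Bub1, the checkpoint kinase, read 4.63, 5.23 and 4.60 in marrow c-kit cells, with 3.75, 2.76 and 3.28 for MSC. It read -4.56, -6.30 and -5.41 in heart c-kit cells, -5.69, -6.38 and -3.71 in heart Sca1 cells, -2.83 and -2.84 in heart SP cells and -4.02 and -0.37 in cardiomyocytes. All marrow arrays lay above all others, with a fitted difference of 8.55 ± 0.59 from cardiac progenitors (limma adjusted p = 5.51e-07). It was 6.36 with low values raised, 2 of the 8 cardiac progenitor values being fill values. A second Bub1 probe gave 4.92, in the same direction.

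Cenpa read 6.46, 6.76 and 6.38 in marrow c-kit cells, 5.49, 4.93 and 5.61 for MSC, -4.09, -5.10 and -1.81 in heart c-kit cells, 0.55, 0.14 and 2.01 in heart Sca1 cells, -5.06 and -2.84 in heart SP cells and 1.47 and 3.09 in cardiomyocytes. The marrow arrays were again above all others, but the non-marrow groups were split, with heart Sca1 cells and cardiomyocytes above heart c-kit and SP cells without overlap. The difference between marrow and cardiac progenitors was 8.18 ± 0.57 (limma adjusted p = 5.64e-07), or 7.13 with low values raised. Ndc80, a kinetochore protein that grips the microtubule, differed by 6.40 ± 0.86 (limma adjusted p = 0.000116), with 2 fill values in cardiac progenitors, and by 4.96 with low values raised. Its partner Nuf2 was low on every array, between -6.16 and -0.05, and was not called (1.38 ± 0.71, limma adjusted p = 0.197).

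The kinesins, motors that slide and move along microtubules, were called higher in 6 of 7 cases (median 4.90). Kif22, which pushes chromosome arms outwards, read 6.54, 6.26 and 6.95 in marrow c-kit cells, 6.02, 5.71 and 6.44 for MSC, 2.13, 2.03 and 1.83 in heart c-kit cells, 0.19, 0.81 and 1.24 in heart Sca1 cells, 1.48 and 1.56 in heart SP cells and 3.47 and 2.96 in cardiomyocytes. The groups of the heart were each narrow and all below the marrow arrays. The difference of 4.90 ± 0.32 had the smallest adjusted p-value of the 42 genes (limma adjusted p = 4.78e-07).

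Kif15, a spindle motor, differed by 6.75 ± 0.58 (limma adjusted p = 2.87e-06), with 6.15, 5.45 and 4.37 in marrow c-kit cells, 4.01, 3.95 and 3.82 for MSC and -3.63 to 0.05 on the arrays of cardiac progenitors. Kif11, the motor that separates the spindle poles, was 3.84 ± 0.15 in marrow c-kit cells (SD, n = 3) and 0.83 ± 0.25 in MSC. The 2 heart SP arrays disagreed on it, at -6.30, which lay below the fill value, and 0.46. Kif2c, a microtubule depolymerase, was not called: it read 0.23, 0.38 and 0.99 in marrow c-kit cells and 1.25 and 0.13 in heart SP cells (difference -0.02 ± 0.50, limma adjusted p = 0.986).

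All 5 spindle assembly genes were called higher (median 4.42), with Spag5 at 6.01 ± 1.04 and Tpx2, an activator of Aurora A, at 5.24 ± 0.96 (limma adjusted p = 0.000905 and 0.0014). Spag5 read -6.30 on heart c-kit replicate 2 and -6.33 on heart Sca1 replicate 3 and heart SP replicate 2, below the fill values. With low values raised its difference was 3.85, and that of Tpx2 was 4.95. The 2 heart SP arrays again disagreed, with Tpx2 at -0.71 on replicate 1 and 4.87 on replicate 2, and the reverse order for the kinase Aurka at 4.49 and -5.50, a fill value. Both chromosome structure genes were called. Top2a, the topoisomerase that untangles sister chromatids, read 4.29, 4.64 and 5.13 in marrow c-kit cells, 2.80, 2.44 and 3.56 for MSC and -6.38 to 0.94 on the 10 other arrays, and its difference from cardiac progenitors was 5.66 ± 0.88 (limma adjusted p = 0.000393). The lowest of these values, on heart Sca1 replicate 2, lay below the fill value, and with low values raised the difference was 5.18.

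Of the 4 genes of the chromosomal passenger complex, which corrects faulty attachments, 3 were called higher (median 3.14). Birc5, the survivin gene, differed by 4.04 ± 0.43 (limma adjusted p = 1.43e-05), and its 2 other probes gave 4.55 and 3.37. Cdca8, the borealin gene, differed by 4.64 ± 0.45 (limma adjusted p = 6.83e-06). Aurkb, the kinase of the complex, was not called (1.17 ± 0.64, limma adjusted p = 0.23). It read 7.07, 5.82 and 5.51 in marrow c-kit cells but also 6.38 on heart c-kit replicate 1 and 7.67 on cardiomyocyte replicate 1, against 2.46 to 4.42 on the remaining arrays of those cell groups, MSC, heart Sca1 and heart SP cells. The 3 highest values thus lay on the replicate 1 arrays of these groups, which also correlated over all genes, as did some pairs of unlike replicate number, as given below. The part of this in the Aurkb result was not tested.

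Of the 3 cytokinesis genes Ect2 and Anln were called. Ect2, the exchange factor that starts the furrow, read 4.44, 4.31 and 4.83 in marrow c-kit cells, with 1.34, 1.00 and 1.76 for MSC, and it was at the fill value on all 3 heart c-kit arrays. It read -5.69, -4.02 and -1.89 in heart Sca1 cells and -2.83 and -5.50 in heart SP cells, below every marrow array. With fill values on 5 of the 8 arrays of cardiac progenitors, the fitted difference has no fold (limma adjusted p = 1.46e-06), and with low values raised it was 5.22 (limma adjusted p = 8.81e-09). Racgap1, its partner at the spindle midzone, depended on the probe. The probe used gave 0.79 ± 0.38 (limma adjusted p = 0.169), with heart SP cells at 2.69 and 2.56 as high as marrow c-kit cells at 2.56, 2.80 and 2.40, while a second, dimmer probe gave 2.82. The mean of both probes gave 1.80 and was called.

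Of the 4 cohesion and anaphase genes 3 were called (median 2.92). Espl1 read 6.05, 5.48 and 5.78 in marrow c-kit cells, 3.00, 2.65 and 3.52 for MSC, -2.16, -3.65 and 0.32 in heart c-kit cells, 0.65, 2.73 and 2.92 in heart Sca1 cells, -0.35 and 3.78 in heart SP cells and 0.30 and 1.21 in cardiomyocytes. The marrow c-kit arrays stood above all others, whereas MSC overlapped heart Sca1 and SP cells (difference between marrow and cardiac progenitors 3.75 ± 0.72, limma adjusted p = 0.00194).

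Pttg1, the securin that holds separase inactive, showed the opposite sign. It read 4.79, 4.79 and 4.24 in marrow c-kit cells, 5.77, 5.49 and 5.51 for MSC, 5.39, 4.67 and 5.80 in heart c-kit cells, 5.92, 5.51 and 5.75 in heart Sca1 cells, 5.97 and 6.68 in heart SP cells and 5.89 and 5.60 in cardiomyocytes. Marrow c-kit cells had the lowest mean, and the 16 arrays ran from 4.24 to 6.68. The difference of -0.68 ± 0.32 did not pass the test (limma adjusted p = 0.157), and a second Pttg1 probe gave -1.84. Pttg1 was called lower in marrow under 3 alternatives, with the mean of both probes (-1.26, limma adjusted p = 0.0179), with low values raised (-0.68, 0.0248) and with array medians aligned (-1.73, 0.0472).

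**Figure D3:**
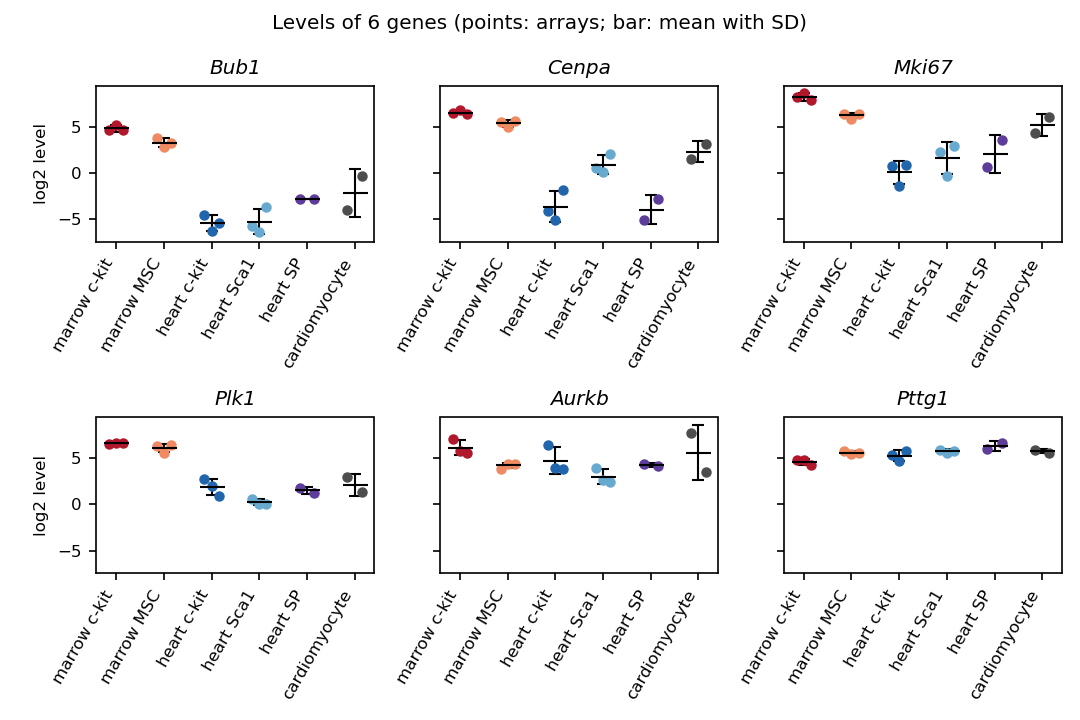
Log2 levels of 6 genes by cell group (points are arrays, bars mean and SD). Bub1, Cenpa, Mki67 and Plk1 are highest in the 2 marrow groups. Aurkb has single high arrays, both of them replicate 1, at 6.38 (heart c-kit cells) and 7.67 (cardiomyocytes). Pttg1 is lowest in marrow c-kit cells, at 4.61.

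Between the c-kit+ cells of marrow and of heart 31 of 42 genes were called higher in marrow and none lower, where 5.91% of all genes were higher and 4.88% lower. The endothelial markers averaged 4.18, 5.02 and 4.61 in heart c-kit cells against -0.53, -0.01 and -0.27 in marrow c-kit cells, and the part of such cells in these differences was not tested. The median difference was 4.70 against -0.11 over all genes, and the arrays did not overlap for 34 genes (13.3% of all genes lay above without overlap). The count was 26 to 31 when single arrays were left out. Bub1 (10.24 ± 0.89, limma adjusted p = 4.44e-06) and Cenpa (10.20 ± 0.86, 3.65e-06) had the highest fitted differences, each with 1 fill value among the 3 heart c-kit arrays. With low values raised the differences were 7.13 for Bub1 and 8.68 for Cenpa, and Mki67, with no fill value, stood between them at 8.13. Ect2, called too (limma adjusted p = 4.53e-06), has no fold here, since each heart c-kit array held the fill value.

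Next in the fit came Ccna2 at 8.73 ± 1.23, also with 1 fill value (limma adjusted p = 0.000292), and Mki67, the antigen that marks cycling cells, at 8.13 ± 0.95 (5.46e-05). Mki67 read 8.17, 8.63 and 7.84 in marrow c-kit cells and 0.73, -1.36 and 0.86 in heart c-kit cells. Kif15 (7.75 ± 0.87), Tpx2 (7.70 ± 1.44) and Espl1 (7.60 ± 1.08) followed, with limma adjusted p of 4.18e-05, 0.00281 and 0.000317. The 11 genes not called were Ccnb2, Melk, Aurkb, Cenpf, Nuf2, Kif20a, Kif2c, Tacc3, Racgap1, Anln and Pttg1. The largest differences among them were those of Nuf2 (2.70 ± 1.06), Tacc3 (2.69 ± 1.11) and Melk (2.17 ± 0.98), with limma adjusted p of 0.136, 0.156 and 0.203. Tacc3, a spindle pole protein, was 5.69 on heart c-kit replicate 2, above the lowest marrow c-kit array at 5.43, and Anln was 5.13 there, above all 3 marrow c-kit arrays.

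MSC of marrow were compared with heart Sca1 cells. The 7 of 8 measured mesenchymal and fibroblast markers averaged 2.32 to 3.49 in MSC and 6.39 to 6.60 in heart Sca1 cells, beside 5.30 and 5.41 in heart SP cells, 4.53 and 5.24 in cardiomyocytes, 1.13 to 2.35 in heart c-kit cells and -1.21 to -0.70 in marrow c-kit cells. Of the 42 mitosis genes 25 were called higher in MSC and none lower, where 5.01% of all genes were higher and 5.3% lower. The median difference was 3.86 against 0.10, and 34 genes did not overlap between the groups (22.8% of all genes lay above without overlap). The count was 17 to 27 with single arrays left out. Bub1 (8.52 ± 0.89) and Ccna2 (8.23 ± 1.23) had the highest fitted differences, with limma adjusted p of 4.59e-05 and 0.000674 and 1 fill value each in heart Sca1 cells. With low values raised they were 5.58 and 5.70, and Aurka stood above them at 6.47.

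Nek2 (6.61 ± 1.17), Aurka (6.49 ± 1.95), Foxm1 (6.44 ± 1.28), Cdca8 (6.17 ± 0.67), Plk1 (5.84 ± 0.59) and Ndc80 (5.72 ± 1.29) followed, with limma adjusted p from 3.7e-05 to 0.0487. Nek2 and Ndc80 each had 1 fill value in heart Sca1 cells. With low values raised the differences were 4.83, 6.47, 4.57, 5.22, 5.84 and 4.41 in the same order of genes, so the ranking rests partly on low values. Aurka, the spindle pole Aurora kinase, read 4.54, 3.50 and 4.70 in MSC and -2.27, -2.38 and -2.09 in heart Sca1 cells, both narrow, but its standard error is wide because the fit shares the spread of the discordant SP and heart c-kit arrays. Cdca8 read 3.53, 2.17 and 3.01 in MSC and -3.41, -2.69 and -3.71 in heart Sca1 cells. Nuf2 (-0.88), Kif20a (-0.65) and Pttg1 (-0.14) had negative values, none of them called. The largest differences that were not called were those of Spag5 (4.28 ± 1.56), Tacc3 (3.20 ± 1.11) and Melk (3.07 ± 0.98), with limma adjusted p of 0.109, 0.0897 and 0.0656.

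Whether the organ difference was larger in c-kit cells than between MSC and heart Sca1 cells was tested as an interaction, a comparison added after the results were seen. It was called for 4 of 42 genes, all with the larger difference in c-kit cells, where 3.78% of all genes were called in that direction and 3.65% in the other. Cenpa differed by 10.20 between the c-kit populations and by 4.45 between MSC and heart Sca1 cells (interaction 5.75 ± 1.21, limma adjusted p = 0.0101), and Espl1 by 7.60 and 0.95 (6.65 ± 1.53, 0.017). For Cdc25c, the activating phosphatase, at the fill value on 2 heart c-kit arrays, the values were 7.17 and 3.05 (4.11 ± 1.13, limma adjusted p = 0.0412), and for Ect2 the interaction was 4.84 ± 1.24 (limma adjusted p = 0.0286) with all heart c-kit arrays at the fill value. None of the 4 was called with array medians aligned, and 2 were called without marrow c-kit replicate 1, 2 or 3, MSC replicate 1 or 2 or heart Sca1 replicate 3. The interaction did not pass for Bub1, with differences of 10.24 and 8.52 (1.72 ± 1.25, limma adjusted p = 0.493), or for Ccna2, with 8.73 and 8.23 (0.50 ± 1.73, limma adjusted p = 0.911).

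**Figure D4:**
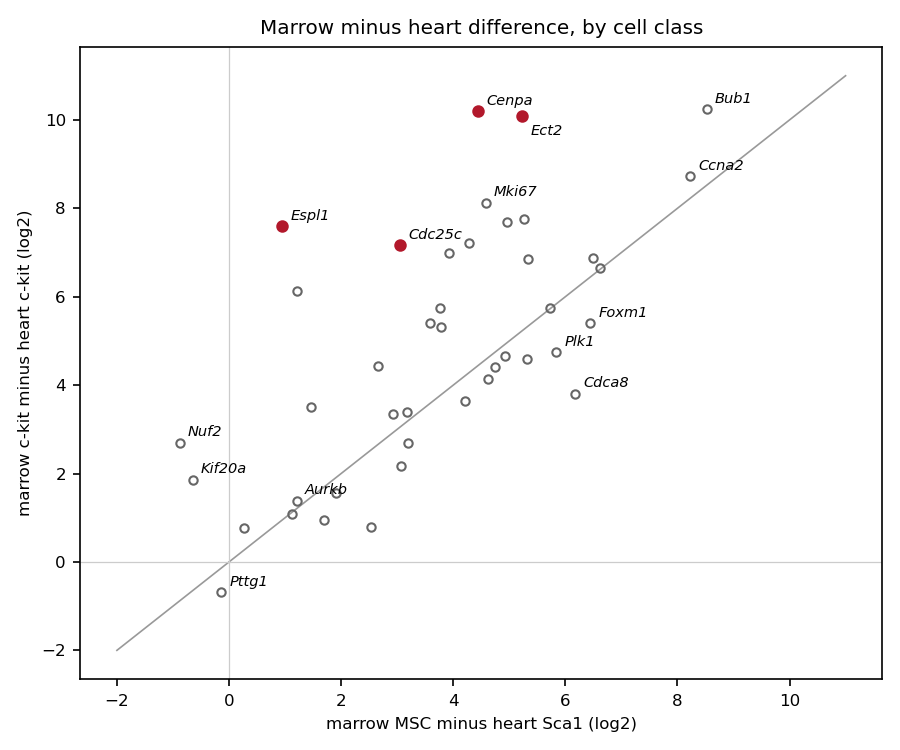
Log2 difference of marrow c-kit minus heart c-kit cells (vertical axis) against MSC minus heart Sca1 cells (horizontal axis) for the 42 genes, with the line of equal differences. Filled points are the 4 genes whose interaction was called, Cenpa, Ect2, Espl1 and Cdc25c, which lie above the line.

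Within the marrow the 2 populations differed less. Of the 42 genes 3 were called higher in c-kit cells than in MSC and none lower, where 3.66% of all genes were higher and 7.35% lower, and the median difference was 1.54 against 0.14. Arrays did not overlap for 30 genes with c-kit cells above, which held for 21.1% of all genes, and for Foxm1 and Pttg1 with MSC above. Ube2c, the ubiquitin enzyme of the anaphase-promoting complex, read 4.74, 4.69 and 5.62 in c-kit cells and 1.52, 1.70 and 2.17 in MSC (3.22 ± 0.85, limma adjusted p = 0.0249). Ect2 (3.15 ± 0.87) and Ttk (3.08 ± 0.85) were the others, with limma adjusted p of 0.0317 and 0.0313.

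Ttk, the kinase at the head of the checkpoint, read 2.39, 2.47 and 1.38 in c-kit cells and -0.33, -1.82 and -0.85 in MSC. Differences of Nuf2 (3.33 ± 1.06), Kif11 (3.01 ± 1.21) and Nusap1 (2.81 ± 1.02) did not pass, with limma adjusted p of 0.0618, 0.142 and 0.103. This count was unsteady. It was 19 when only these 6 arrays were fitted, 0 with array medians aligned, 7 without heart c-kit replicate 1, 1 without marrow c-kit replicate 3 or MSC replicate 1, and 0 without any 1 of the other 4 marrow arrays. The share of all genes called moved too, from 11% to 22.9%, 8.09% and 12.8% in the first 3 of these settings. The SDs of the 42 genes in these groups were small, at a median of 0.44 and 0.39, against 1.49 in heart c-kit cells.

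Within the heart the genes did not move together. Between c-kit and Sca1 cells 2 were called higher in c-kit cells (3.29% of all genes) and 2 lower (7.81%), and the median difference was 0.48 against 0.23. Cdca8 was higher in heart c-kit cells, at 0.54, 1.20 and 0.30 against -3.41, -2.69 and -3.71 (3.95 ± 0.67, limma adjusted p = 0.00196). Cdca5, the cohesion protector sororin, was higher too, at 1.97 ± 1.83 (SD, n = 3) against -0.80 ± 0.46 (2.77 ± 0.77, limma adjusted p = 0.0322). Cenpa (-4.57 ± 0.86, limma adjusted p = 0.00376) and Espl1 (-3.93 ± 1.08, 0.0311), whose values are given above, were lower in heart c-kit cells. None of these 4 groups of values overlapped. Cdc25c (-2.27 ± 0.80), Nusap1 (-2.12 ± 1.02) and Cenpf (2.07 ± 0.99) did not pass. Without heart Sca1 replicate 3, the array with high endothelial markers, 2 genes were called, and with only these 6 arrays in the fit 1 was. The share of all genes called was 7.59% and 4.4% there, against 11.1% in the main result.

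Heart progenitors were also set against cardiomyocytes, whose 2 arrays all these comparisons share. For heart c-kit cells no gene was called higher (0.994% of all genes) and 3 lower (2.59%), with a median of -0.47 against 0.13. These were Cenpa (-5.95 ± 0.96, limma adjusted p = 0.0036), Mki67 (-5.08 ± 1.06, 0.0163) and Ect2 (limma adjusted p = 0.0214), which read -1.63 and -0.62 in cardiomyocytes against fill values in heart c-kit cells. Mki67 read 4.32 and 6.00 in cardiomyocytes, 2.27, -0.29 and 2.92 in heart Sca1 cells and 0.59 and 3.53 in heart SP cells, so that the cardiomyocyte arrays lay above every cardiac progenitor array. Its second probe read 3.26 on average in cardiomyocytes and -0.89 to -0.26 in the 3 progenitor groups. The endothelial and macrophage marker levels of the cardiomyocyte arrays, given above, stand beside this result, and their part in it was not tested. The count was 5 without heart c-kit replicate 1 and 0 without cardiomyocyte replicate 2.

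For heart Sca1 cells against cardiomyocytes limma called none of the 42 genes, and none of the 17710 either (0.0%), with 10 of the 42 and 2067 of all genes at an unadjusted p under 0.05. The median was -1.08 against 0.09. Mki67 (-3.53 ± 1.06), Bub1 (-3.06 ± 0.99) and Cdca8 (-2.98 ± 0.75) differed most, with limma adjusted p of 0.206, 0.239 and 0.15. Without heart Sca1 replicate 3 the count was 1. For heart SP cells no gene was called higher (1.89% of all genes) and Cenpa lower (3.29%), at -6.23 ± 1.05 (limma adjusted p = 0.00492). Kif20a (-3.91 ± 1.10) and Kif23 (-3.67 ± 1.20), motors of the spindle midzone, did not pass (limma adjusted p = 0.0552 and 0.0916). That count was 4 without heart SP replicate 2, 0 without cardiomyocyte replicate 2, and 2 without heart c-kit replicate 1 or 2, heart Sca1 replicate 1 or 3 or heart SP replicate 1.

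Against the same cardiomyocyte arrays, marrow c-kit cells had 28 genes called higher (4.99% of all genes) and none lower (7.43%), with a median of 4.49 against 0.14. Bub1 (7.02 ± 0.99), Spag5 (6.73 ± 1.75), Kif15 (6.68 ± 0.98), Ccna2 (6.46 ± 1.37), Cdc25c (6.41 ± 0.89) and Ttk (5.46 ± 0.95) were among them, with limma adjusted p from 0.000276 to 0.0205. Mki67 was not called (3.05 ± 1.06, limma adjusted p = 0.0821), though its arrays did not overlap. The count was 13 without cardiomyocyte replicate 1 and 17 without replicate 2, each of which leaves 1 array whose spread is taken from the other groups. For MSC 10 genes were called higher (3.93% of all genes) and none lower (3.94%), with a median of 2.87 against 0.10. Foxm1 led at 5.96 ± 1.43 (limma adjusted p = 0.0204), with Ccna2 at 5.71 ± 1.37 and Bub1 at 5.46 ± 0.99 (0.0207 and 0.00427). That count was 3 without cardiomyocyte replicate 1 and 6 or 5 without MSC replicate 1 or 3.

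**Figure D5:**
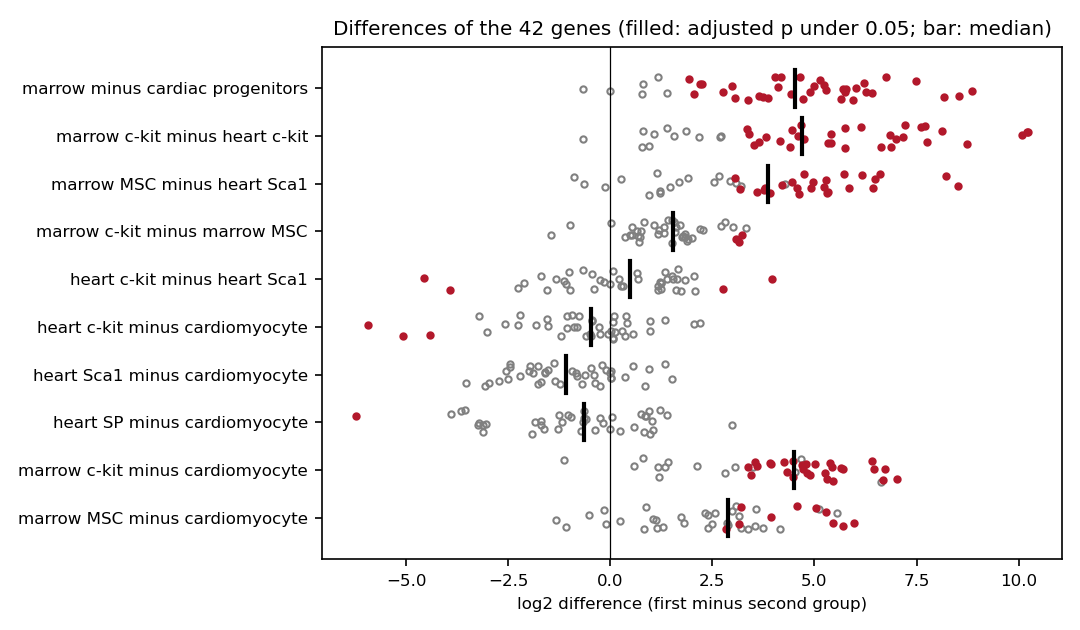
Log2 differences of the 42 genes (points) in the 10 comparisons, filled where called, with the median as a bar. The bars lie between 2.87 and 4.70 wherever a marrow population is set against heart cells or cardiomyocytes, and between -1.08 and 1.54 in the other comparisons.

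A wider list of mitosis genes, 89 of 95 measured and none of them among the 42, gave smaller medians with the same direction. Between marrow and cardiac progenitors 56 were called higher and 1 lower (median 2.61), against 11.4% and 9.12% of all genes and a median of -0.05. The genes that moved most were the cyclin Ccnf (7.95 ± 0.87), the inner kinetochore gene Cenph (7.56 ± 0.46), the outer kinetochore gene Knl1 (7.48 ± 0.93) and Trip13, which recycles checkpoint complexes (6.88 ± 0.89), with limma adjusted p from 3.7e-07 to 8.29e-05. Cenph read 4.49, 4.51 and 5.02 in marrow c-kit cells, with 2.85, 2.68 and 2.97 for MSC, and -5.69 to -1.82 on the 8 cardiac progenitor arrays. Between the c-kit populations 43 were higher and none lower (5.91% and 4.88% of all genes). Between MSC and heart Sca1 cells 26 were higher and none lower (5.01% and 5.3%).

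The gene that went the other way was Cep55, which recruits the machinery of the final cut between daughter cells. It read -4.93, -2.93 and -3.29 in marrow c-kit cells, with 3.42, 2.63 and 3.76 for MSC, against -4.41, -3.65 and 0.04 in heart c-kit cells, 5.95, 5.97 and 6.22 in heart Sca1 cells, 6.16 and 6.02 in heart SP cells and 1.23 and 3.62 in cardiomyocytes. Both c-kit populations were low and the Sca1 and SP populations high, each without overlap. It was lower in marrow than in cardiac progenitors (-3.38 ± 0.67, limma adjusted p = 0.00231) and lower in heart c-kit than in heart Sca1 cells (-8.72 ± 1.00, 0.000116). Gtse1, a spindle and G2 phase protein, was as high in heart c-kit cells, at 6.04, 5.93 and 5.74, as in marrow c-kit cells, at 5.67, 5.28 and 6.23, and read -0.25 to 2.30 in heart Sca1 cells (heart c-kit minus heart Sca1 5.30 ± 0.68, limma adjusted p = 0.000249).

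DNA replication genes, which act before mitosis, moved the same way: 22 of 29 measured (31 listed) were called higher in marrow than in cardiac progenitors and none lower (median 3.10), against 11.4% and 9.12% of all genes. Uhrf1, which keeps DNA methylation through replication, differed by 6.42 ± 0.84, and the replication factors Mcm10 and Mcm5 by 5.87 ± 0.52 and 5.37 ± 0.63 (limma adjusted p from 3.65e-06 to 9.13e-05). Mcm5 read 7.83, 7.88 and 8.22 in marrow c-kit cells, with 6.61, 6.05 and 6.58 for MSC. In the heart c-kit cells it read 3.03, 4.02 and 3.63, and in heart Sca1 cells 0.02, 0.17 and 3.20, the last on the array with high endothelial markers.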

How the data were processed

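Total RNA of 16 samples was amplified (WT-Ovation Pico) and coupled to Cy5, per the labels' protocols, and the series text says that only this channel of a 2-colour array was used. The deposited table holds log2 intensities. Per the values, 15 of the 16 arrays have a mean of about 0, and each carries 1 repeated fill value at 3.38% to 13.8% of its probes. No source used here gives the background correction, the rule behind the fill value or the scanner. The number of arrays limits the precision.

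The log2 values as deposited were quantile normalised over all 26423 probes. Names came from the platform's probe table, updated through RefSeq's gene table of GRCm38.p6, and 20377 probes had a symbol. The probe with the highest mean stood for each of 17710 genes, of which 2273 have several. A model of 6 group means was fitted to all 16 arrays with limma 3.58.1 in R 4.3.3 (lmFit, eBayes), and 10 contrasts were each adjusted by Benjamini-Hochberg over all genes. The steps were tested on simulated data, with changes put into 200 genes of marrow c-kit cells. Against heart c-kit cells, 3.33% of changes of 2 log2 units, 48% of those of 4 and 74% of those of 6 were recovered. More genes were called in the data than were changed there, so these shares are a guide only. A gene that was not called is not thereby shown to be equal between groups. Full statistics were given for up to 8 called members per comparison, those with the largest differences and no overlap between arrays, for up to 3 members not called and for up to 4 other mitosis genes; others are named by level or in counts of 5 or fewer, and Gtse1, Mcm5, Mcm10, Uhrf1 and the further members with a p-value were chosen after their values were seen.

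The members and lists were chosen with earlier results of these data known. Replicate numbers did not pair the arrays as a whole. Over the 36 pairs of arrays from different groups that share a number, deviations from group means correlated between -0.183 and 0.399 (median 0.00737). Over the 70 pairs that do not share a number the range was -0.399 to 0.324 (median -0.00075). Among them heart c-kit replicate 3 and cardiomyocyte replicate 2 correlated at 0.324, and marrow c-kit replicate 2 and heart c-kit replicate 3 at 0.239. The replicate 1 arrays of marrow c-kit cells, heart c-kit cells and cardiomyocytes correlated at 0.204, 0.317 and 0.399 with each other. These arrays also had the lowest SDs of deposited values, at 3.29, 2.90 and 2.95 in the order named. The replicate 2 arrays of marrow c-kit cells and cardiomyocytes correlated at 0.32. Deviations of the 2 cardiomyocyte arrays are mirror images, so that value restates the -0.32 of marrow c-kit replicate 2 with cardiomyocyte replicate 1. Deviations of the 3 marrow c-kit arrays cancel out by construction, so it is not fully separate from the 0.317 either. The other same-number pairs were below 0.1. What the correlated arrays share was not tested. Alternatives covered normalisation, low values, probes, array weights, a replicate block, the arrays fitted and each array left out.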

Additional observations from a re-analysis of the deposited data

Results flagged for a closer look

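For 4 of the 42 genes the difference between marrow and heart was larger in c-kit cells than between MSC and heart Sca1 cells, by a test of the difference itself. Of all genes 3.78% were called in that direction and 3.65% in the other. The comparison was added after the results had been seen. The difference of the differences was 5.75 ± 1.21 for Cenpa (limma adjusted p = 0.0101), 6.65 ± 1.53 for Espl1 (0.017), 4.84 ± 1.24 for Ect2 (0.0286) and 4.11 ± 1.13 for Cdc25c (0.0412). With array medians aligned the limma adjusted p-values were 0.055, 0.0839, 0.204 and 0.33. With the deposited values 1 gene was called, and with single arrays left out 2 to 4 were. Ect2 was at the fill value on all 3 heart c-kit arrays and Cdc25c on 2 of them, so the size of both is a fitted value and no measured fold.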

How the results depend on the processing

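None of the 113 pairs of gene and comparison chosen by the rule for full statistics changed sign under any alternative. The rule took the largest differences of these same data, so a kept sign was likely in advance and is weak support. Of their 2691 values under alternatives 162 lost and 69 gained a call. Outside these pairs, signs did change between MSC and heart Sca1 cells, while signs within the heart and against cardiomyocytes are not listed here. Pttg1 went from -0.14 to 0.09 with array medians aligned, and Nuf2 from -0.88 to 0.01 with low values raised. With each of the 16 arrays left out in turn, the called members numbered 26 to 31 (marrow c-kit against heart c-kit), 17 to 27 (MSC against heart Sca1), 34 to 36 (marrow against cardiac progenitors), 0 to 7 (marrow c-kit against MSC), 2 to 6 (heart c-kit against heart Sca1), 0 to 5, 0 to 1 and 0 to 4 (heart c-kit, Sca1 and SP against cardiomyocytes), 13 to 33 and 3 to 15 (marrow c-kit and MSC against cardiomyocytes), 31 to 37 (any of 6 groups) and 2 to 4 (interaction). Marrow c-kit against MSC, 3 in the main result, gave 0 with array medians aligned, 9 with values under the 30th percentile raised to it, 5 with the mean of probes, 14 with array weights per group and 19 with only the arrays compared. The share of all genes called there moved too, from 11% in the main result to 8.09%, 13.7%, 11.2%, 24.6% and 22.9% in the same order. Heart c-kit against heart Sca1 (4) gave 2 with the deposited values and 1 with only the arrays compared, and its split was 2 higher and 1 lower with medians aligned. The shares of all genes were 11.1% (main), 8.74%, 4.4% and 7.81%. Heart c-kit against cardiomyocytes (3) gave 1 with medians aligned, 1 with array weights and 0 with only the arrays compared, and heart Sca1 cells (0) gave 1 with low values raised. For heart c-kit cells the shares of all genes were 3.58% (main), 0.847%, 1.37% and 0.0169%. For heart Sca1 cells the share rose from 0% to 1.82%. Heart SP cells (1) gave 3 with medians aligned (2 higher), which moved the median of all genes from 0.06 to 1.34, 2 with the deposited values, 2 with the lowest 30% of genes removed, 3 with low values raised, 2 with the mean of probes and 0 with only the arrays compared. The shares of all genes were 5.17% (main), 14.8%, 4.68%, 8.35%, 8.4%, 5.2% and 0%. Marrow c-kit against cardiomyocytes (28) gave 17 with medians aligned and 17 with the deposited values, and MSC (10) gave 18 with low values raised, 16 with array weights and 22 with only the arrays compared. For marrow c-kit cells the shares of all genes were 12.4% (main), 5.23% and 5.95%. For MSC they were 7.87% (main), 12.6%, 11.5% and 13%. The interaction (4) gave 0 with medians aligned and 1 with the deposited values. The cause of these changes was not tested. With the replicate number as a block, which the data do not bear out as a pairing of all arrays, the counts were 30, 27, 2, 35, 26 and 9 for marrow c-kit against heart c-kit, MSC against heart Sca1, marrow c-kit against MSC, marrow against cardiac progenitors and marrow c-kit and MSC against cardiomyocytes. The shares of all genes were 10.5%, 9.75%, 10.6%, 19.5%, 11.2% and 6.62% in the same order.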

Other observations

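Among 19 measured of 22 listed genes that hold or license the cell cycle, 3 were called higher in marrow than in cardiac progenitors and 2 lower, shares near the 11.4% and 9.12% of all genes, so the list as a whole did not stand apart in this count. The single genes below are given as values. Cdkn1a, the p21 inhibitor of cyclin-dependent kinases, read 4.99, 5.21 and 5.75 in marrow c-kit cells and 7.38, 7.15 and 8.18 in MSC, against 8.44, 9.33 and 9.02 in heart c-kit cells, 7.92, 7.74 and 7.57 in heart Sca1 cells and 8.91 and 8.98 in heart SP cells. Marrow c-kit cells were lowest without overlap, and the difference between marrow and cardiac progenitors was -2.09 ± 0.33 (limma adjusted p = 0.000392). Foxo1, a factor that promotes cell cycle arrest, differed by -2.70 ± 0.73 (limma adjusted p = 0.0176). Cdkn1c, the p57 inhibitor, was lower in marrow c-kit cells than in MSC (-4.55 ± 0.68, limma adjusted p = 0.000508). In that comparison 4 of the 19 genes were called lower and 0 higher, against 7.35% and 3.66% of all genes.

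Ccnd2, a D cyclin of G1 phase, was higher in marrow (2.16 ± 0.42, limma adjusted p = 0.00208), with its highest values in MSC at 8.02, 7.40 and 7.51. Ccnd3 (1.17 ± 0.37) and Lin9, a MuvB subunit (3.52 ± 1.05), were the others called higher, with limma adjusted p of 0.0358 and 0.0292. Cdkn2b, the p15 inhibitor, went in opposite directions in the 2 organ comparisons, lower in marrow c-kit than in heart c-kit cells (-7.92 ± 1.48, limma adjusted p = 0.00281) and higher in MSC than in heart Sca1 cells (5.23 ± 1.48, 0.0379). Of the 19 listed genes 1 was called higher and 3 lower in the first (5.91% and 4.88% of all genes). In the second 2 were called higher and 0 lower (5.01% and 5.3%). These genes were chosen after their values were seen, and the difference between the 2 comparisons was not tested.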
